A study of Arabidopsis thaliana with 2 samples.

Results

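Alpha-expansins (EXPA) are wall-loosening proteins of plants, and 10 of their genes were followed in the stem of Arabidopsis thaliana: EXPA1 (AT1G69530), EXPA3 (AT2G37640), EXPA4 (AT2G39700), EXPA5 (AT3G29030), EXPA6 (AT2G28950), EXPA8 (AT2G40610), EXPA9 (AT5G02260), EXPA10 (AT1G26770), EXPA11 (AT1G20190) and EXPA15 (AT2G03090). They were chosen by locus identifier, and all 10 were found among the 33669 features of the deposited table. Total RNA from the main stem, called mature stem in the sample titles, was sequenced from plants labelled hdt1 mutant and from wild-type plants. Both were collected at 35 days after flowering in a greenhouse at 20 °C with 16 h of light and 8 h of dark. The sources used here do not give the allele, the background accession or the number of plants behind a library. There is 1 library per genotype, called wild type and hdt1 below, so no test between genotypes was possible and every interval covers counting error in these libraries only. In RNA from a whole stem, fewer cells of a type and less RNA per cell cannot be told apart.

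Expansins are secreted into the wall, where they let cellulose and matrix polymers slip past each other at acidic pH without cutting them. The wall then yields to turgor and the cell enlarges. Alpha-expansins are the largest branch of the family, beside beta-expansins (EXPB) and the expansin-like groups EXLA and EXLB. Their genes respond to auxin, brassinosteroid and gibberellin, and members differ in the organ in which they are used: EXPA10 is known for leaf growth and the abscission zone of the pedicel, EXPA1 for the opening of stomata, and EXPA7 and EXPA18 for root hairs.

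HDT1 encodes a plant-specific histone deacetylase of the HD2 type. It was at 52.6 FPKM (fragments relative to gene length and library size) in wild type and 5.19 FPKM in hdt1, which matches the labels. The deposited FPKM values imply totals of 21728500 counted reads in wild type and 23070249 in hdt1. The 10 alpha-expansins took 3486 and 6441 of them. Marker genes were read beside the stem label. All 6 xylem and fibre markers, all 4 phloem markers and all 4 cambium markers had a mean of at least 1 FPKM, whereas the 3 flower markers summed to 0.444 FPKM in wild type and 0.146 FPKM in hdt1. Of the 3 root hair markers RHD6 and RSL4 were at 0 in both libraries. No leaf marker was among them, so these values cannot tell the stem from another organ with vascular tissue.

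The alpha-expansins can be told apart by sequence, which matters because reads of near-identical genes cannot be assigned. In the RefSeq annotation of TAIR10.1 their longest coding sequences, of 759 to 828 bases, were 55.9% to 76.4% identical over the 45 pairs of members, with a median of 63.9%. The longest identical stretch within a pair was 33 bases, between EXPA10 and EXPA15. No word of 50 bases from the exons of any of the 10 genes occurred a second time in that genome. No member overlaps another gene there. EXPA4 and EXPA6 were the most alike pair, and both have 3 coding exons of 145, 319 and 310 bases. EXPA3 and EXPA9 followed at 74.5% identity and EXPA10 and EXPA15 at 73.8%. Outside the 10 genes, EXPA16 was closer to EXPA4, at 80.2%.

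The stem used these genes at very unequal levels. In the wild-type library EXPA4 was highest at 28.8 FPKM (95% exact Poisson interval 26.8 to 30.8), followed by EXPA1 at 25.6 (23.8 to 27.6), EXPA10 at 21.7 (19.9 to 23.7) and EXPA15 at 20.3 FPKM (18.7 to 22.0). EXPA6 at 12.1 FPKM and EXPA9 at 10.9 FPKM formed a middle step. EXPA5 was at 3.39 FPKM and EXPA3 at 1.84 FPKM. EXPA8 at 0.292 FPKM and EXPA11 at 0.283 FPKM rest on 7 reads each. The counting intervals overlapped between EXPA4 and EXPA1, between EXPA10 and EXPA15, between EXPA6 and EXPA9 and between EXPA8 and EXPA11. The order within these neighbours is therefore not taken as settled here. Overlap of separate intervals is a strict rule, and it does not show that 2 levels are alike. The other steps of the order were larger than the counting error.

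In the hdt1 library EXPA4 and EXPA1 were again the highest, and EXPA6 stood at position 3 instead of 5. EXPA4 was at 72.1 FPKM (69.2 to 75.2), EXPA1 at 47.4 (44.95 to 49.9) and EXPA6 at 26.6 FPKM (24.8 to 28.4), with no overlap between these 3. EXPA15 at 22.5 FPKM overlapped EXPA10 at 20.2 FPKM, and EXPA10 overlapped EXPA9 at 18.2 FPKM. EXPA5 was at 4.48 FPKM and EXPA3 at 1.59 FPKM. EXPA11 was at 0.951 FPKM and EXPA8 at 0.314 FPKM, from 25 and 8 reads. The interval of EXPA11 overlapped those of EXPA3 and EXPA8.

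**Figure D1:**
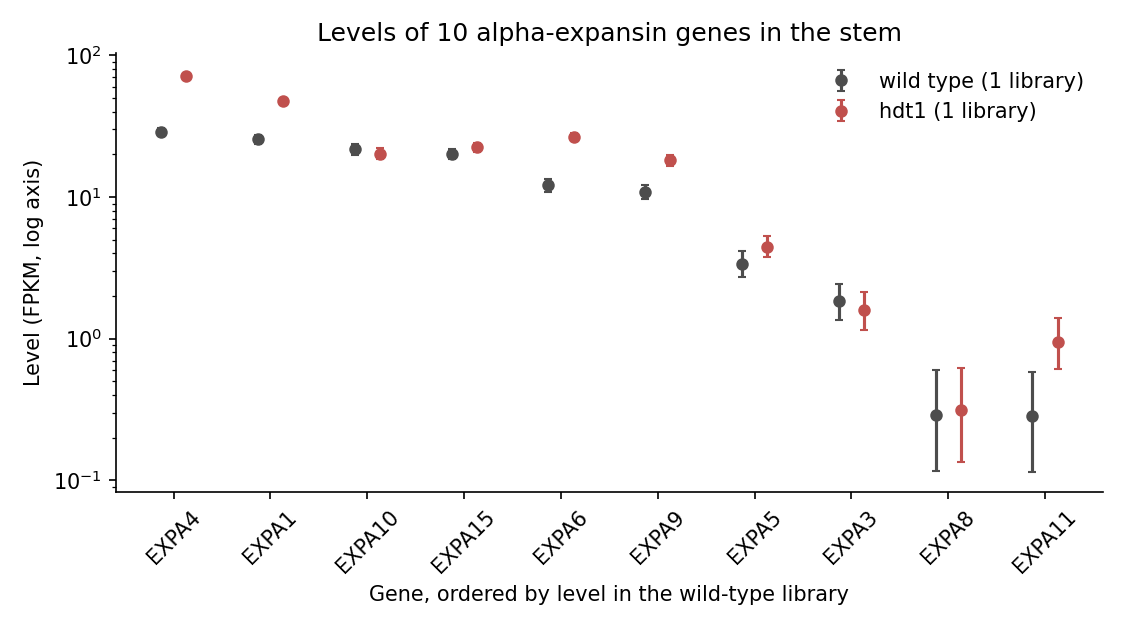
Level of each alpha-expansin gene in FPKM on a log axis, in wild type and hdt1 (1 library each), ordered by the wild-type level. Bars are 95% exact Poisson intervals from the reads; EXPA4 lies at 28.8 and 72.1 FPKM and EXPA10 at 21.7 and 20.2 FPKM.

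The study compared the transcripts of the mutant stem with those of its control, and the question here is which alpha-expansins differed. EXPA4, EXPA6, EXPA1 and EXPA9 had higher values in the hdt1 library, as had EXPA11 from few reads. EXPA10 and EXPA15 lay close to their wild-type values, and none of the 10 was lower beyond counting error. Folds below are ratios of the FPKM values with a 95% exact (Clopper-Pearson) counting interval. EXPA4 went from 28.8 FPKM in wild type to 72.1 FPKM in hdt1, 2.51-fold (2.32 to 2.72), from 836 and 2227 reads. EXPA6 went from 12.1 to 26.6 FPKM, 2.19-fold (1.94 to 2.48), from 365 and 849 reads. EXPA1 went from 25.6 to 47.4 FPKM, 1.85-fold (1.69 to 2.03), from 723 and 1420 reads. These are 3 of the 5 most abundant members of the wild-type library, so their counting intervals are narrow. EXPA9 went from 10.9 to 18.2 FPKM, 1.67-fold (1.45 to 1.94), from 295 and 524 reads.

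The counting intervals of EXPA10, EXPA15 and EXPA5 end below those of EXPA4 and EXPA6. EXPA10 was at 21.7 FPKM in wild type and 20.2 FPKM in hdt1, a fold of 0.931 (0.822 to 1.05) from at least 512 and 506 reads. EXPA15 was at 20.3 and 22.5 FPKM, 1.11-fold (0.994 to 1.24), from 598 and 705 reads. Both intervals include 1 and end well under 2. EXPA5, a gene known from brassinosteroid-dependent growth, was at 3.39 and 4.48 FPKM, 1.32-fold (1.01 to 1.73), from 95 and 133 reads, with a lower bound next to 1.

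The 3 members of lowest level are poorly resolved. EXPA3 was at 1.84 and 1.59 FPKM, a fold of 0.863 (0.560 to 1.33), from at least 48 and 44 reads. EXPA11 was at 0.283 and 0.951 FPKM, 3.36-fold (1.41 to 9.21), from 7 and 25 reads. EXPA8 was at 0.292 and 0.314 FPKM, 1.08-fold (0.341 to 3.49), from 7 and 8 reads. EXPA11 thus had the largest ratio of the 10 and also an interval that includes the folds of EXPA4, EXPA6, EXPA1 and EXPA9. The interval of EXPA8 includes the folds of all the others.

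**Figure D2:**
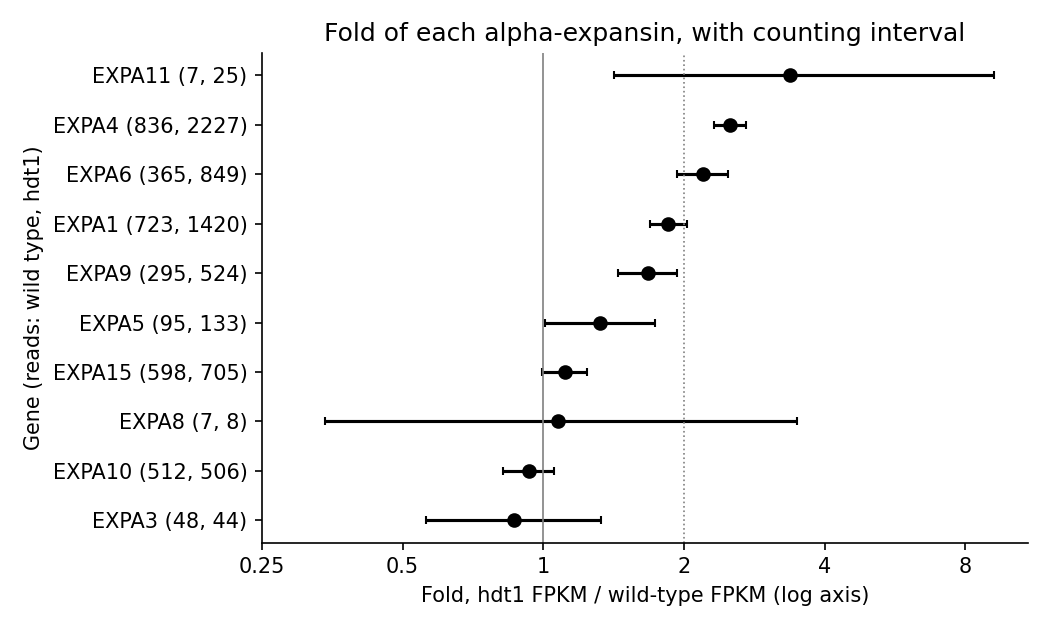
Ratio of the hdt1 to the wild-type FPKM for each alpha-expansin on a log axis, with the 95% exact counting interval; the reads of the wild-type and the hdt1 library stand beside each name. The line marks a ratio of 1 and the dotted line a ratio of 2; EXPA4 at 2.51 and EXPA10 at 0.931 have intervals that do not meet.

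The folds of the members were compared in pairs, always the larger fold divided by the smaller. For 25 of the 45 pairs this ratio had an approximate 95% counting interval (log scale) above 1, that is, excluding 1. Pairs of other genes were not counted in this way, so the count is not read as a trait of the alpha-expansins. The fold of EXPA4 was 2.70 times that of EXPA10 (2.33 to 3.12) and 1.36 times that of EXPA1 (1.20 to 1.53). The fold of EXPA6 was 1.97 times that of EXPA15 (1.67 to 2.32). Set beside coding identity, the most alike pair, EXPA4 and EXPA6, held the members with the largest folds among those above 1 FPKM. EXPA10 and EXPA15 are also alike, and the fold of EXPA15 was 1.19 times that of EXPA10 (1.01 to 1.41). EXPA3 and EXPA9 are slightly more alike than EXPA10 and EXPA15, yet the fold of EXPA9 was 1.94 times that of EXPA3 (1.26 to 2.99). EXPA16, the closest relative of EXPA4, had the opposite direction, at 0.916 FPKM in wild type and 0.235 FPKM in hdt1 from 22 and 6 reads.

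A gene was compared with all others when its mean over the libraries was at least 1 FPKM, and the log2 ratio was taken after adding 1 FPKM to both values, which makes the differences of low genes look smaller. Every count of genes past 2-fold here and in the lists that follow is on that scale, so that a plain ratio of more than 2 may stay uncounted. Of the 10 members 8 entered, while EXPA8 and EXPA11 did not. On that scale 2 of the 8, EXPA4 and EXPA6, were higher in hdt1 by 2-fold or more, where 2.32% of the 17811 genes compared were. None was at least 2-fold lower, where 0.741% of all genes were. The median log2 ratio was 0.51 for the 8 members and -0.03 for all genes compared. The log2 ratio was above 0 for 6 of the 8, against 46.0% of all genes, and 5 of the 8 had a fold whose counting interval was above 1, against 24.8% of all genes. None had an interval below 1, against 28.9% of all genes. EXPA4, with a log2 ratio of 1.3, stood at percentile 99.0 of all genes compared, EXPA6 with 1.07 at percentile 98.0, EXPA1 with 0.86 at percentile 96.6 and EXPA9 with 0.69 at percentile 94.6. EXPA5 was at percentile 84.8, EXPA15 at 71.5, EXPA10 at 40.1 and EXPA3 at 35.2. With 5 FPKM added to both values EXPA6 was no longer 2-fold higher, at 1.84-fold.

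**Figure D3:**
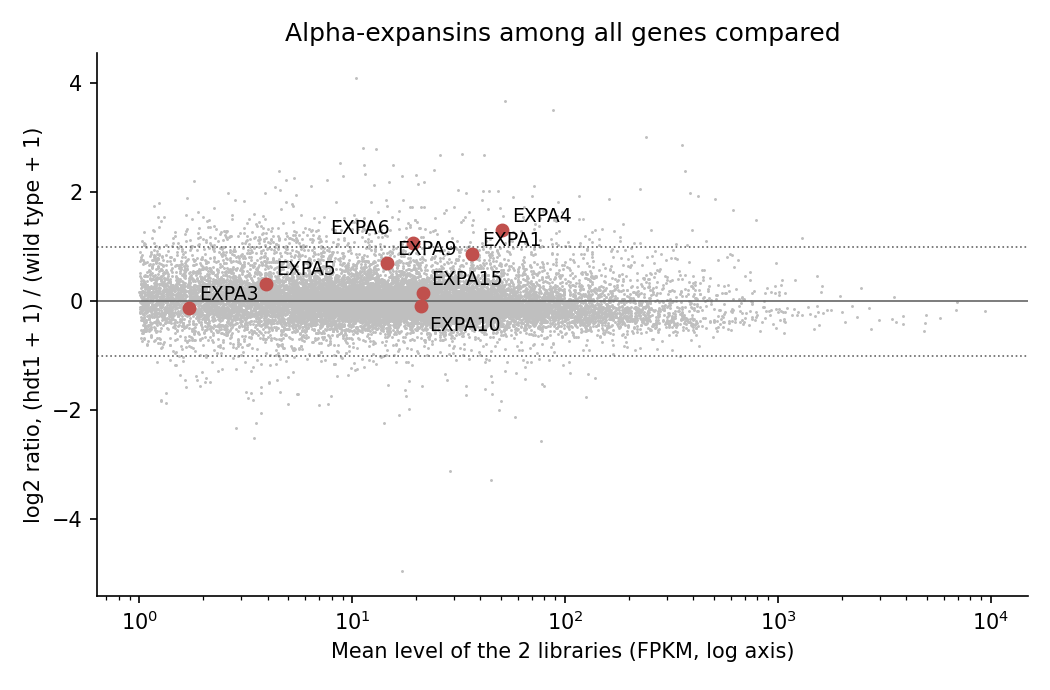
Log2 ratio of hdt1 to wild-type FPKM, with 1 FPKM added to both, against the mean FPKM of the 2 libraries (log axis) for the 17811 genes compared, with the 8 alpha-expansins that entered in red. Dotted lines mark 2-fold; EXPA4 and EXPA6 lie above the upper one.

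Since FPKM values are per length, the members can be added into a pool of alpha-expansin transcripts. The pool was 125 FPKM in wild type and 214 FPKM in hdt1, a ratio of 1.71 (1.64 to 1.78, approximate counting interval). EXPA4 alone made up 23.0% of the pool in wild type and 33.7% in hdt1. Without EXPA4 the ratio was 1.47 (1.40 to 1.55). EXPA1 held 20.5% and 22.1%, EXPA6 9.69% and 12.4%, and EXPA9 8.69% and 8.49%. The share of EXPA10 was 17.3% in wild type and 9.42% in hdt1 and that of EXPA15 16.2% and 10.5%, although their own levels were similar in both. Of the difference of 89.2 FPKM between the pools, EXPA1, EXPA4, EXPA6 and EXPA9, grouped after their values were seen, carried 97.5%. The other 6 members summed to 47.8 and 50.03 FPKM, a ratio of 1.05 (0.970 to 1.13).

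**Figure D4:**
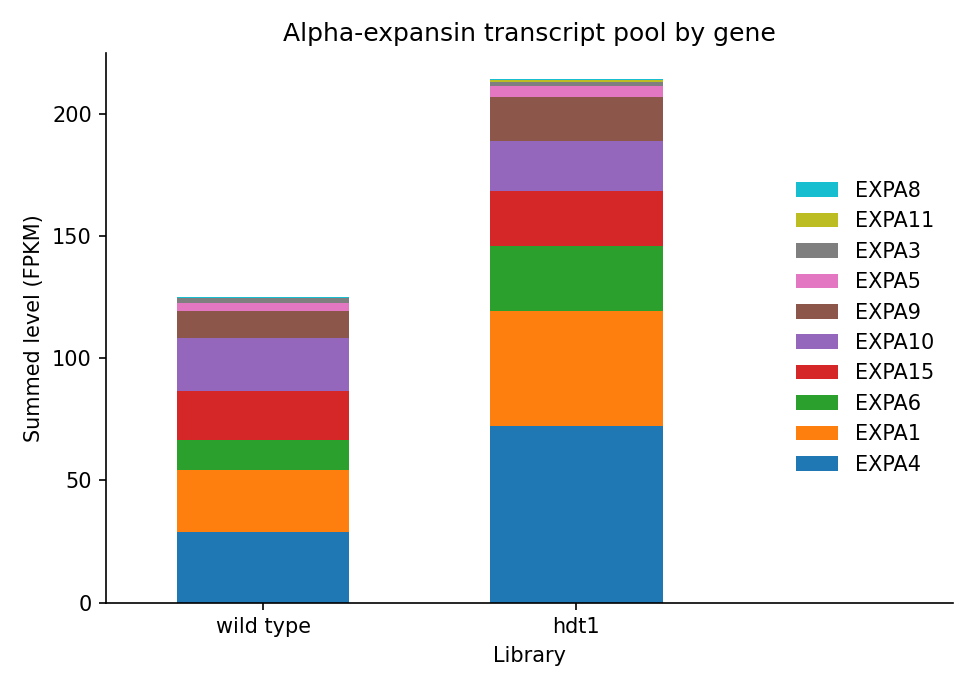
Summed FPKM of the 10 alpha-expansins in the wild-type and the hdt1 library, divided by gene. The bars reach 125 and 214 FPKM, and the segments of EXPA4, EXPA1 and EXPA6 are taller in the hdt1 library while those of EXPA10 and EXPA15 are similar.

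The other 16 alpha-expansin genes added little. They summed to 15.2 FPKM in wild type and 18.7 FPKM in hdt1, and only EXPA13 and EXPA21 had a mean of at least 1 FPKM. EXPA13 was at 11.1 FPKM in wild type and 15.3 FPKM in hdt1, 1.38-fold (1.19 to 1.61), from 282 and 414 reads. EXPA21 was at 1.43 and 0.791 FPKM from 29 and 17 reads, with an interval that includes 1. EXPA20 was at 0.484 and 1.18 FPKM, 2.43-fold (1.21 to 5.20), from 12 and 31 reads. EXPA12 was at 1.19 and 0.512 FPKM, a fold of 0.432 (0.191 to 0.915), from 24 and 11 reads. EXPA16, with the values given above, had a fold of 0.257 (0.0852 to 0.653), so the intervals of EXPA12 and EXPA16 lay below 1. EXPA2, known from seed germination, was at 0.141 and 0.443 FPKM from 3 and 10 reads, with an interval that includes 1. EXPA14 and EXPA17, known from lateral roots, had 0 reads in wild type and 4 and 2 reads in hdt1. The root hair genes EXPA7 and EXPA18 were at 0 in both, as were EXPA19, EXPA22, EXPA23, EXPA24, EXPA25 and EXP26. For a gene of 1000 bases a count of 0 allows up to 3 reads, or 0.138 FPKM in wild type and 0.130 FPKM in hdt1.

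Beta-expansins and expansin-like proteins share the fold of alpha-expansins, and their roles in the stem are less well known. Of 10 beta-expansin and expansin-like genes 5 entered, all 5 with a log2 ratio above 0, against 46.0% of all genes. With 1 FPKM added, 1 of the 5 passed 2-fold upward, against 2.32% of all genes. Their median log2 ratio was 0.75. EXPB3 was at 8.14 FPKM in wild type and 29.4 FPKM in hdt1, 3.61-fold (3.12 to 4.19), a larger ratio than that of any alpha-expansin that entered. EXLA1, more abundant than any alpha-expansin, was at 128 and 201 FPKM, 1.57-fold (1.499 to 1.65). EXLA3 was at 41.7 and 81.7 FPKM, 1.96-fold (1.81 to 2.12), and EXLA2 at 14.2 and 24.4 FPKM, 1.73-fold (1.51 to 1.98). EXLB1 was at 16.5 and 17.7 FPKM, with an interval that includes 1. EXPB1 was at 0.0807 and 0.266 FPKM, EXPB5 at 0 and 0.228 FPKM, and EXPB2, EXPB4 and EXPB6 were at 0 in both libraries.

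Expansins act at acidic pH, and the list for wall acidification held plasma membrane proton pumps, the transmembrane kinases that activate them, phosphatases of clade D and small auxin-induced SAUR genes. Of its 12 genes 8 entered, and the median log2 ratio was 0.23. With 1 FPKM added none of the 8 was 2-fold higher, against 2.32% of all genes, or 2-fold lower, against 0.741%. The pump AHA3 was at 26.1 FPKM in wild type and 38.6 FPKM in hdt1, 1.48-fold (1.40 to 1.57). AT3G23750, a receptor-like kinase, was 1.28-fold higher (1.16 to 1.42) and TMK1 1.22-fold higher (1.07 to 1.40). AHA1, the most abundant pump gene of the list, was at 265 and 314 FPKM, 1.18-fold (1.16 to 1.21). These folds were smaller than those of EXPA4, EXPA6 and EXPA1.

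Xyloglucan endotransglucosylases (XTH), which cut and rejoin the main hemicellulose of the primary wall, were represented by 10 genes, all of which entered. Of them 7 had a log2 ratio above 0, against 46.0% of all genes, and the list's median was 0.26. With 1 FPKM added, 1 of the 10 passed 2-fold upward, against 2.32% of all genes, and none passed it downward, against 0.741%. The gene past 2-fold was XTH15, at 0.259 and 2.08 FPKM, 8.01-fold (3.44 to 22.8), from only 6 and 51 reads. XTH9 was at 21.5 and 42.3 FPKM, 1.97-fold (1.77 to 2.19). XTH18 was at 7.99 and 14.3 FPKM, 1.79-fold (1.49 to 2.15), and XTH33 at 2.37 and 1.14 FPKM, 2.09-fold lower (1.30 to 3.41). Of 10 pectin-modifying genes 3 entered, each of them a pectin methylesterase. All 3 had a log2 ratio above 0, against 46.0% of all genes, and the median was 0.55. PME3 was at 63.2 and 92.8 FPKM, PME17 at 4.41 and 7.86 FPKM, and PME35, known from the wall of stem fibres, at 51.8 and 60.2 FPKM.

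Transcription factors described upstream of expansin genes in auxin and brassinosteroid signalling were looked at as a further list. Of the 14 genes 11 entered, 9 with a log2 ratio above 0, against 46.0% of all genes, and the median was 0.20. With 1 FPKM added none was 2-fold higher, against 2.32% of all genes, or 2-fold lower, against 0.741%. The plain ratio of BEE3 was above 2. HBI1, a bHLH factor known to bind expansin promoters in the control of elongation, was at 8.10 FPKM in wild type and 14.2 FPKM in hdt1, 1.75-fold (1.503 to 2.04). BEE3, a bHLH factor induced by brassinosteroid, was at 0.730 and 1.72 FPKM, 2.35-fold (1.29 to 4.504), from 16 and 40 reads. The auxin response factors ARF6 and ARF19 were 1.30-fold (1.23 to 1.37) and 1.33-fold (1.20 to 1.47) higher. Over the 11 genes the counting interval was above 1 for 6, against 24.8% of all genes. It was below 1 for 1, against 28.9%, and included 1 for 4.

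Markers of xylem and fibres also had higher values in the hdt1 library, beside the alpha-expansins. With 1 FPKM added, 3 of the 6 were 2-fold higher, against 2.32% of all genes. Plain FPKM ratios ran from 2.09 for XCP2 to 3.59 for CESA7. All genes were not counted on that plain scale, so no count is read from it. The summed level of the 6 markers was 35.3 FPKM in wild type and 95.5 FPKM in hdt1. CESA7, a cellulose synthase of secondary walls, was at 8.36 and 29.99 FPKM. The 4 cambium markers summed to 31.3 and 49.9 FPKM and the 4 phloem markers to 370 and 463 FPKM. In both lists all 4 had a log2 ratio above 0, against 46.0% of all genes. With 1 FPKM added, 1 of the 4 phloem markers was 2-fold higher, against 2.32%. The 4 epidermis markers summed to 236 and 224 FPKM, and 1 of the 3 that entered was above 0. Their part in the differences of the alpha-expansins was not tested.

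**Figure D5:**
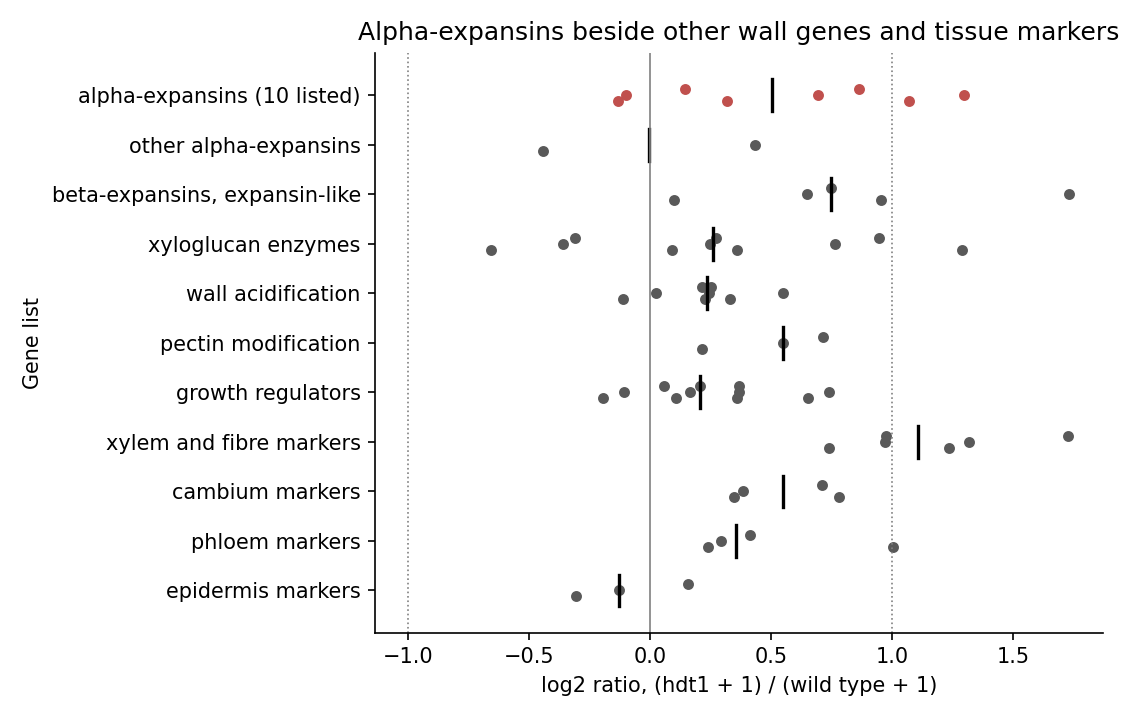
Log2 ratio of hdt1 to wild-type FPKM, with 1 FPKM added to both, for each gene with a mean of at least 1 FPKM in the lists named at the left; vertical bars are list medians and dotted lines mark 2-fold. The alpha-expansins spread from -0.13 to 1.3 around a median of 0.51, and the xylem and fibre markers have a median of 1.1.

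The genes next to the alpha-expansins were read against the share over all genes. Of the 20 neighbours, taken in annotation order on either side of each member, 12 entered. With 1 FPKM added none of the 12 passed 2-fold upward, against 2.32% of all genes, 1 passed it downward, against 0.741%, and 5 had a log2 ratio above 0, against 46.0% of all genes. The counting interval of the fold was below 1 for 3 of the 12, against 28.9% of all genes, and above 1 for none, against 24.8%. With 12 genes, nothing is read from these counts. RTFL8, a small peptide gene of the ROTUNDIFOLIA-like family next to EXPA4, was at 39.6 FPKM in wild type and 15.0 FPKM in hdt1, a fold of 0.379 (0.326 to 0.440) and thus in the direction opposite to EXPA4. AS1, a MYB factor of leaf development next to EXPA3, was at 14.5 and 11.6 FPKM, a fold of 0.798 (0.696 to 0.914). AT2G40600, next to EXPA8, was at 29.2 and 22.1 FPKM, a fold of 0.759 (0.671 to 0.857).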

How the data were processed

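RNA from the stem of 1 hdt1 and 1 wild-type sample was analysed. The authors deposited FPKM values for both libraries in a single table, per the file headers. TopHat2 2.0.12, HTSeq 0.6.1 and Bowtie2 2.2.3 were used, per the submitters' processing notes. Genome build, annotation, strand setting and read length are not given by the sources used here, so no coordinates or sequences are printed. Of 33669 features 67 carry no locus identifier and were left out.

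Low values lay on whole multiples of a read's worth, from which library totals and read numbers were computed (relative tolerance 1e-12), with the smallest pair of whole reads whose gene length holds the coding sequence. They sum to 97.6% of the wild-type and 97.7% of the hdt1 total. For EXPA3 and EXPA10 a pair larger by a whole step (72 and 66, 768 and 759) is also possible, so their intervals are, if anything, too wide. The recovery was tested on simulated data.

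Log2 ratios used a pseudocount of 1 FPKM, genes needed a mean of at least 1 FPKM, and called means at least 2-fold. Intervals are at 95% and, like floors of 3 reads, cover counting error alone, as reads can be copies of 1 molecule. Gene names, order and coding identity come from RefSeq's annotation of TAIR10.1 (32835 of 33602 loci found), computed with Python 3.11.15, scipy 1.17.1 and Biopython 1.88. Of 107 list entries 7 carry another name there and are given by that name or by locus. Named genes are all members, all other expansins, HDT1, the neighbours (by counts, with those whose counting interval excludes 1 printed, a choice made after seeing their values), and of each further list up to 4 genes above 1 FPKM with the largest absolute log2 ratio. CESA7 and XCP2, the highest and lowest folds of the xylem and fibre markers, were named after their values were seen. Members and lists were chosen with earlier results of these data known. Alternatives were other pseudocounts, scalings, filters and limits, and, chosen after seeing the data, removal of trends with gene length or GC content and a sum without EXPA4.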

Additional observations from a re-analysis of the deposited data

How the results depend on the processing

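EXPA4 and EXPA6 were 2-fold higher, and no member 2-fold lower, under each scaling and filter tried. With a pseudocount of 5 FPKM 1 member was 2-fold higher; at a limit of 1.5-fold 4 were, and at 4-fold 0 were. The median log2 ratio of the members lay between 0.36 and 0.59, except 0.78 with a mean of at least 5 FPKM, a filter that leaves 6 members. The ratio of the summed levels was 1.79 with equal FPKM sums and 1.47 without EXPA4. Over all genes, 413 higher and 132 lower became 652 and 246 with a pseudocount of 0.1 FPKM, 167 and 47 with 5 FPKM, 271 and 79 under that stricter filter, 1254 and 572 at 1.5-fold, and 37 and 11 at 4-fold. Of 66 recomputed folds of single members 63 stayed inside the counting interval; with a pseudocount of 5 FPKM EXPA4 was at 2.29, EXPA6 at 1.84 and EXPA11 at 1.13. Depth limits EXPA8 and EXPA11, which rest on 7 wild-type reads each. No paired analysis was possible because there is 1 library per genotype, and leaving out a replicate was not possible for the same reason.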
